A study of Mus musculus with 4 samples.

Results

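Culture medium taken from stem cells of adipose tissue (ADSC medium) was added to hepatic stellate cells that also received the cytokine IL17A, and the array of that culture was set against the array of cells with IL17A alone. The 2 samples were taken by their titles from 4 in the series, and the other 2, untreated cells and cells with ADSC medium but no IL17A, serve here for normalization and as a separate pair. All 4 cultures were IMS/N cells, a single SV40-immortalized stellate line derived from normal 129/Sv mouse liver, and IL17A was the recombinant murine protein. The medium came from ADSCs grown out of the inguinal subcutaneous fat of male C57BL/6J mice aged 8 to 10 weeks. Neither doses nor times are given in the sources used here. Each group had 1 array, so no difference has a replicate check or a p-value, and "higher" and "lower" describe these 2 arrays. The IL17A array lay on slide 1 and the combined array on slide 2, so in every difference given here added medium and slide cannot be told apart.

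IL-17A binds the receptor pair Il17ra and Il17rc, and the adaptor Act1, encoded by Traf3ip2, carries the signal to NF-kB, C/EBP factors and proteins that stabilize short-lived mRNAs. Its usual targets are neutrophil-attracting chemokines, Il6, the siderophore-binding lipocalin Lcn2 and serum amyloid A genes. In the healthy liver these cells hold the body's vitamin A stores, and in fibrosis they become contractile, collagen-producing cells. Medium from cultured stromal cells of fat is known to carry growth factors, matrix proteins and cytokines.

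Levels are log2 processed signals after quantile normalization over the 4 arrays, on a scale where 1 unit is a factor of 2, and a gene stands for its brightest probe with a RefSeq accession. Between 58.1% and 60.5% of the spots of an array were well above background by the scanner software, and 0 were saturated. Of 19300 genes, 13073 were well above background on the IL17A array, the combined array or both, and these are called measured. A gene is called when it differed at least 2-fold. Where 1 array was dim, that side was set to the lowest signal well above background on that array or to its own value if higher, and the difference is given as "at least". Probes printed many times gave a spread of spots within an array. It puts the SD of a difference of 2 single spots at 0.31 log2 units below a level of 5, 0.14 from 5 to 7 and 0.085 above 7. This within-array SD holds no variation between cultures, labelling reactions, arrays or slides, so it understates the spread of the differences given here. Array signal is total RNA of a culture, so fewer expressing cells and less RNA per cell cannot be told apart.

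Markers of the labelled cell type were mostly present. Of 20 stellate and mesenchymal markers, 16 were measured, while Reln, Lum, Hand2 and Gfap were dim on all 4 arrays. Of these 16, 1 was at least 2-fold higher and 2 were lower. Markers of several other cells that a liver preparation could hold were mostly dim on all 4 arrays, with 10 of 13 for hepatocytes (Alb and Apoa1 among them), 10 of 14 for macrophages (Ptprc and Adgre1), 8 of 12 for endothelium (Pecam1 and Cdh5), 8 of 10 for lymphocytes (Cd3d and Ms4a1) and 6 of 9 for neutrophils. This did not hold for the other 2 lists. Of 12 adipocyte and ADSC markers 5 were dim on all 4 arrays, Adipoq, Lep and Plin1 among them, while Cd34 (14.305 with IL17A), Ly6a (11.72), Lpl (8.996), Fabp4 (8.38) and Pparg (8.28) were measured. Of 9 cholangiocyte markers 3 were dim on all 4 arrays, and Krt19 (7.99), Spp1 (12.96) and Sox9 (8.15) were among the 6 measured. The cholangiocyte list had 1 call, Muc1 at -1.36. None of the measured hepatocyte, macrophage, endothelial, adipocyte and stem cell, lymphocyte or neutrophil markers was called.

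With ADSC medium added to IL17A, 225 genes were at least 2-fold higher, which is 1.72% of the measured genes, and 328 were at least 2-fold lower, which is 2.51%, or 4.23% in either direction. These shares are the background for each list count given here, and they are not matched to any list for level. The median difference of all measured genes was 0.015, and 82.7% lay within 0.5 of 0. The split was 323 higher to 240 lower with each array scaled to its 75th percentile. Calls were more frequent at low levels. Of genes below a mean level of 5, 13.1% were called in either direction, against 6.72% from 5 to 7 and 1.54% above 7. The differences reached 4-fold for 37 higher and 46 lower genes, and 75 of the higher and 79 of the lower genes rest on a dim array. Where a called gene had several probes well above background on both arrays, they went the same way for 28 of 32 higher and 52 of 54 lower genes. Background correction by the normexp method with an offset of 50, which by construction narrows differences between dim signals, left 49 higher and 73 lower, and 55 of 129 called genes open to naming kept a 2-fold size.

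**Figure D1:**
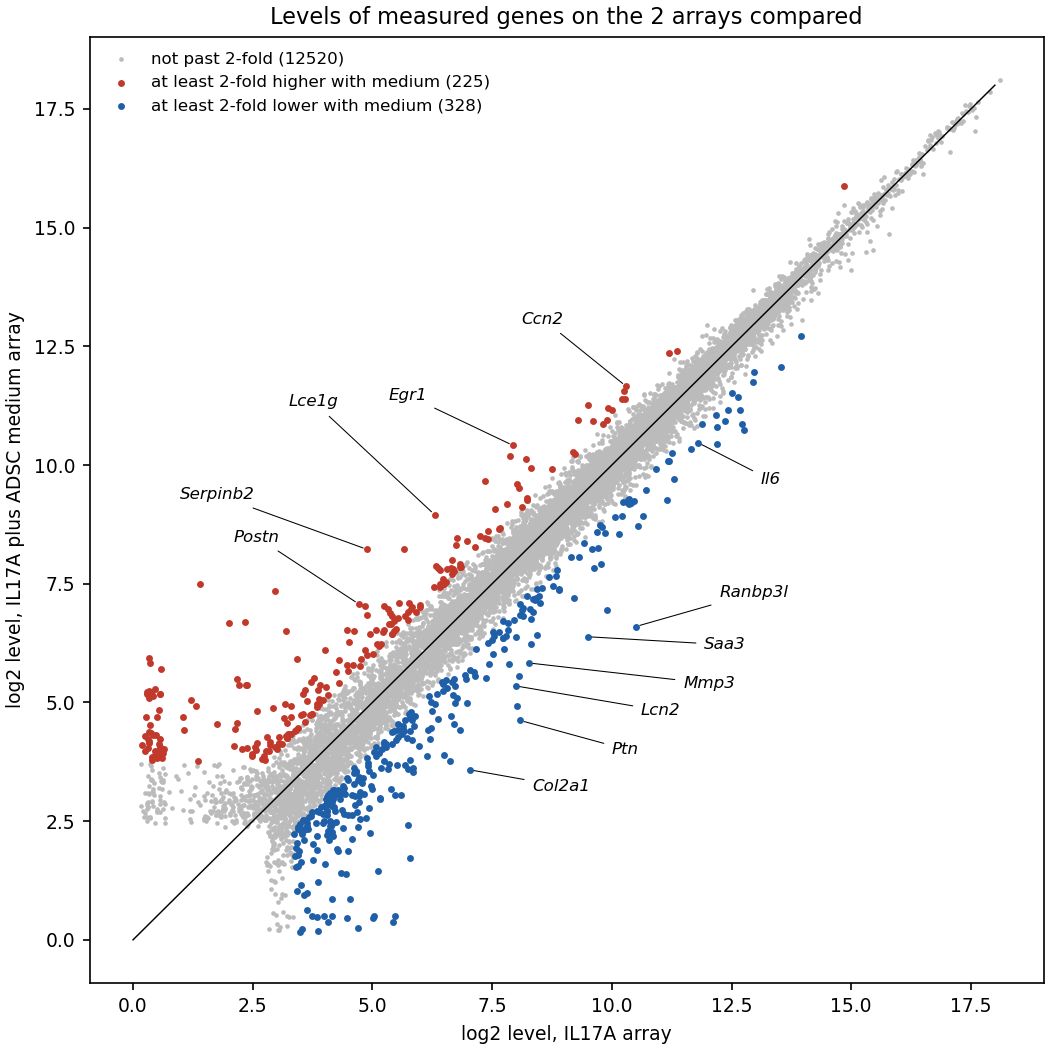
Log2 level of each of the 13073 measured genes on the IL17A array (x axis) and on the array with IL17A plus ADSC medium (y axis), with 225 genes at least 2-fold higher in red and 328 at least 2-fold lower in blue. Saa3, Lcn2 and Il6 lie below the line of equal levels and Egr1, Postn and Ccn2 above it, and called genes thin out at high levels, where only 1.54% passed the 2-fold size.

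Acute-phase and other effector genes of the IL-17 response were lower with added medium. Saa3, an acute-phase apolipoprotein gene, was at 9.49 on the IL17A array and 6.38 on the combined array, and was dim at 0.49 in untreated cells and 0.34 with medium alone. The difference with added medium was 8.63-fold. Lcn2 had the same shape, at 7.999 with IL17A, 5.35 with both and dim at 0.41 and 0.27 on the arrays without the cytokine, a 6.29-fold difference. Both genes therefore stood far above their background on each array with IL17A and between the other levels on the combined array. Il6, a cytokine gene, was at 5.04 untreated, 11.801 with IL17A, 4.99 with medium alone and 10.47 with both, which is 2.52-fold lower with added medium. The complement gene C3 went from 10.65 to 8.93, with 5.196 in untreated cells and 5.93 with medium alone. Nos2, the inducible nitric oxide synthase gene, was at 6.195 and 4.23 and dim on both arrays without IL17A. For Il6 and C3 the combined array lay nearer to the IL17A array than to either array without the cytokine. Saa3, Lcn2 and Nos2 were dim without IL17A, so that distance has only a bound for them.

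The 250 bases upstream of 3 of these genes are shown because they were searched for letters that NF-kB and C/EBP factors, the carriers of the IL-17 signal, are known to prefer. The sequences and starts are RefSeq's on GRCm38.p6, written 5' to 3' in the gene's direction up to the base before the annotated start. Capitals mark matches on either strand to the NF-kB pattern, GGGA and CC with 4 free bases between them, or to the C/EBP pattern, TTGCNNAA. Saa3 lies on the minus strand at chr7:46715677-46715926, Lcn2 on the minus strand at chr2:32387740-32387989 and Il6 on the plus strand at chr5:30012864-30013113.
Saa3: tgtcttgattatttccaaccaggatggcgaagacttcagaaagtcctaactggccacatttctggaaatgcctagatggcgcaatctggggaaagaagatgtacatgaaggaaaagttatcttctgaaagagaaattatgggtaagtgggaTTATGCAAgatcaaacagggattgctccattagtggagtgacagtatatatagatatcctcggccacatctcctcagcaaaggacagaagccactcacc
Lcn2: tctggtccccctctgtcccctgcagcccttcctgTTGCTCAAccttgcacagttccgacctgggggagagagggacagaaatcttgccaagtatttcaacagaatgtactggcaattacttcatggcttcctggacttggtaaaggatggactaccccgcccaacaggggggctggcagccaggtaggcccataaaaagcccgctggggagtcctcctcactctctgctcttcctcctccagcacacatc
Il6: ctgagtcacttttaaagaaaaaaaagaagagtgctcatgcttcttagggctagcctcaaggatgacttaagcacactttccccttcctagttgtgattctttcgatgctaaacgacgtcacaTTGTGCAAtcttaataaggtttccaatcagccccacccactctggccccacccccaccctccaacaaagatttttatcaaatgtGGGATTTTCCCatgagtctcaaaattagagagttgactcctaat
Saa3 and Lcn2 each had 1 C/EBP match, TTGCATAA on the opposite strand and TTGCTCAA on the gene's own strand. Neither window held the NF-kB pattern. Il6 had 1 C/EBP match, and GGGATTTTCC on its own strand overlapped GGGAAAATCC on the other strand, so the pair is 1 place. Of all 32851 promoter windows of this length, 17.6% held the NF-kB pattern and 9.56% the C/EBP pattern. A match or its absence describes the letters of the window only.

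Of 31 genes on a list of IL-17 targets, 26 were measured, 10 were lower and 0 were higher. The share lower was 38.5%, against 2.51% among all measured genes, which were not matched to the targets for level. Of the 10 lower targets, 5 were dim on both arrays without IL17A. Of the 16 targets well above background on all 4 arrays, 4 were lower. The list median was -0.59, against 0.015 for all genes. On the separate pair without IL17A it was -0.19 over 18 measured targets, a smaller set of genes. The lower members were, besides those above, Mmp3 (-2.44), Ccl11, an eosinophil chemokine gene (at least 3.70-fold), Saa1 (-1.501), Ccl20 (-1.203) and Cxcl2 (at least 2.06-fold). Ccl11 and Cxcl2 were measured through the IL17A array alone, so they could not have been called higher. The neutrophil chemokine genes Cxcl5 and Cxcl1 were at -0.92 and -0.55 and did not pass 2-fold. Ptgs2, the inducible cyclooxygenase gene, was at 0.29, Csf2 at 0.54 and the ubiquitin editor gene Tnfaip3 at 0.33. With normexp correction Saa3 (-2.34), Lcn2 (-1.597), C3 (-1.54), Mmp3 (-1.74) and Il6 (-1.28) kept a 2-fold size, and Nos2 (-0.77), Saa1 (-0.85), Ccl20 (-0.35), Ccl11 (-0.31) and Cxcl2 (-0.15) did not.

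None of the genes that carry the IL-17 signal passed 2-fold. Il17ra was at -0.053, Il17rc at -0.11 and Traf3ip2 at -0.34, and 0 of 14 measured receptor, adaptor and kinase genes were called, with the lowest, the kinase adaptor gene Tab2, at -0.70. Among NF-kB and I-kappa-B genes 0 of 13 were called, with Rela at 0.02 and the inhibitor gene Nfkbia at 0.016, and their median was 0.029, or -0.17 with median scaling. The mRNA stability list had 0 of 11 called, with the RNase gene Zc3h12a at -0.42, and of the C/EBP genes Cebpd was at -0.62 and Cebpb at -0.11. With 4.23% of all measured genes called, counts of 0 in lists of this size do not set these genes apart. Zc3h12a stood at 9.48 and 9.06 on the IL17A and combined arrays, against 5.42 and 5.097 without IL17A. The levels of this feedback gene thus split by IL17A on all 4 arrays, with little distance between the arrays with and without medium.

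Around this core, acute-phase genes were the list with the lowest median, -1.76, with 4 of 6 measured members lower, against 2.51% of all measured genes. The other 6 of 12 members were dim on both arrays, and Hp was measured through the IL17A array only. The 2.51% also stands beside the complement and CC chemokine counts given next. It was not matched to any of these lists for level, and 13.1% of genes below a level of 5 were called in either direction. Saa3, Lcn2 and Saa1 here, C3 among complement genes and Ccl11 and Ccl20 among CC chemokines were also counted as IL-17 targets above. Beside Saa3, Lcn2 and Saa1, the copper-carrying ferroxidase gene Cp was at 8.44 with IL17A and 6.43 with both, and at 4.45 and 3.23 without the cytokine. Complement had 4 of 15 lower, with the classical pathway protease genes C1s1 (-1.31) and C1ra (-1.01) and the complement regulator Cd55 (at least 8.41-fold) besides C3. CC chemokines had 4 of 12 lower, with Ccl9 (-1.39) and Ccl8 (-1.36) in addition to Ccl11 and Ccl20. In the interleukin-1 family the receptor antagonist gene Il1rn (-1.85) and the IL-33 receptor gene Il1rl1 (-1.59) were lower, and Il1rl1 differed as much without IL17A (-1.57). Of the Toll-like receptors, Tlr7 for single-stranded RNA was at -2.604 and Tlr4 for lipopolysaccharide at -1.37. Irak3, a brake on these receptors, was at least 20.8-fold higher but was well above background on the combined array only. Another RefSeq probe of Irak3 was dim on all 4 arrays, at 2.24 with IL17A and 2.39 with both. Interferon response genes had a median of 0.075 or -0.10 with median scaling. Oas2 (1.88) was higher and Ifit2 (-1.299) lower of 27 measured, and none of 16 measured MHC class I genes was called. With 4.23% of all measured genes called, these counts do not set either list apart. With normexp correction Oas2 (0.94), Cd55 (-0.66), C1ra (-0.98) and Tlr4 (-0.97) did not pass 2-fold, and Oas2 was at 0.99 and Saa1 at -0.77 as the mean of their probes. C1ra was also just inside 2-fold with 75th percentile scaling.

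Early growth response genes of the Egr family were higher with added medium. The list of Egr genes, their corepressors and serum response factor with its partners had 3 of 8 measured members higher and 1 lower, with a median of 0.26. Among all measured genes, 1.72% were higher and 2.51% lower. Egr1, an early transcription factor gene, was at 8.72 untreated, 7.94 with IL17A, 11.49 with medium alone and 10.41 with both, a 5.56-fold difference. Egr2, its relative, stood at 6.92, 6.77, 8.84 and 8.46 in the same order, and Egr3 was dim at 1.97 and 2.38 on the arrays without medium and at 5.93 and 5.37 with it. On both medium arrays, each of the 3 genes was above both arrays without medium. Their corepressor gene Nab2 was lower, at -1.08. The phosphatase gene Dusp6 (1.05) and Spry2 (1.002), which respond to and restrain MAP kinase signals, were higher, and so was Ier2 (1.08). These were 3 of 20 measured members of the MAP kinase feedback list, against 1.72% of all measured genes. The list median of 0.11 turned to -0.033 with median scaling. With that scaling, which moved the median of all genes by -0.18, Dusp6 (0.81), Spry2 (0.78) and Ier2 (0.87) did not pass 2-fold. Of the AP-1 and Atf3 list, which holds other early-response genes, 0 of 15 measured members were higher and 1 was lower, Maf at -1.17. With 1.72% of all measured genes higher, a count of 0 does not set this list apart. Of its members 11 were above 0 and 4 below, with a median of 0.21. Without IL17A 3 of the 15 were higher and 1 lower, with a median of 0.38. Maf was at -0.90 as the mean of its RefSeq probes, -0.60 with normexp and -0.20 with all probes. The EGF-family ligand gene Hbegf, the 1 called of 11 measured, was at 1.19 and the cell-cycle inhibitor gene Cdkn1a at 1.296. With 4.23% of all measured genes called, 1 call does not set the EGF list apart. Hbegf was at 0.97 with median scaling. Egr1 (2.36) and Egr2 (1.28) stayed past 2-fold with normexp correction and Egr3 (0.72) did not, and Egr3 was at 0.31 as the mean of its probes. Nab2 (-0.86) and Spry2 (0.91) were inside 2-fold with normexp, and Spry2 was at 0.55 as the mean of its probes.

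The promoter of Egr2 is shown because serum response factor, which growth factors activate together with its partners, binds CArG boxes. This is the upstream window of 1 of its 5 annotated starts, on the plus strand at chr10:67537316-67537565 (GRCm38.p6, RefSeq), with the CArG box in capitals. The window with the most matches among the 5 was taken, so the choice favoured one that holds a box.
Egr2: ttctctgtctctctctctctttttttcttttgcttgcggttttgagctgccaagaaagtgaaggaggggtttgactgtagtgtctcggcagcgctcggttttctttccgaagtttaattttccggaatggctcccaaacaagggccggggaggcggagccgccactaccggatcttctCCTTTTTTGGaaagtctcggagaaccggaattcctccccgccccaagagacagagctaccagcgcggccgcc
The box was found in 1.47% of all windows, a share per single window that does not allow for the choice among 5. Srf itself was at 0.22 and its partners Elk3 and Elk4 at 0.31 and -0.092, none of them called.

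**Figure D2:**
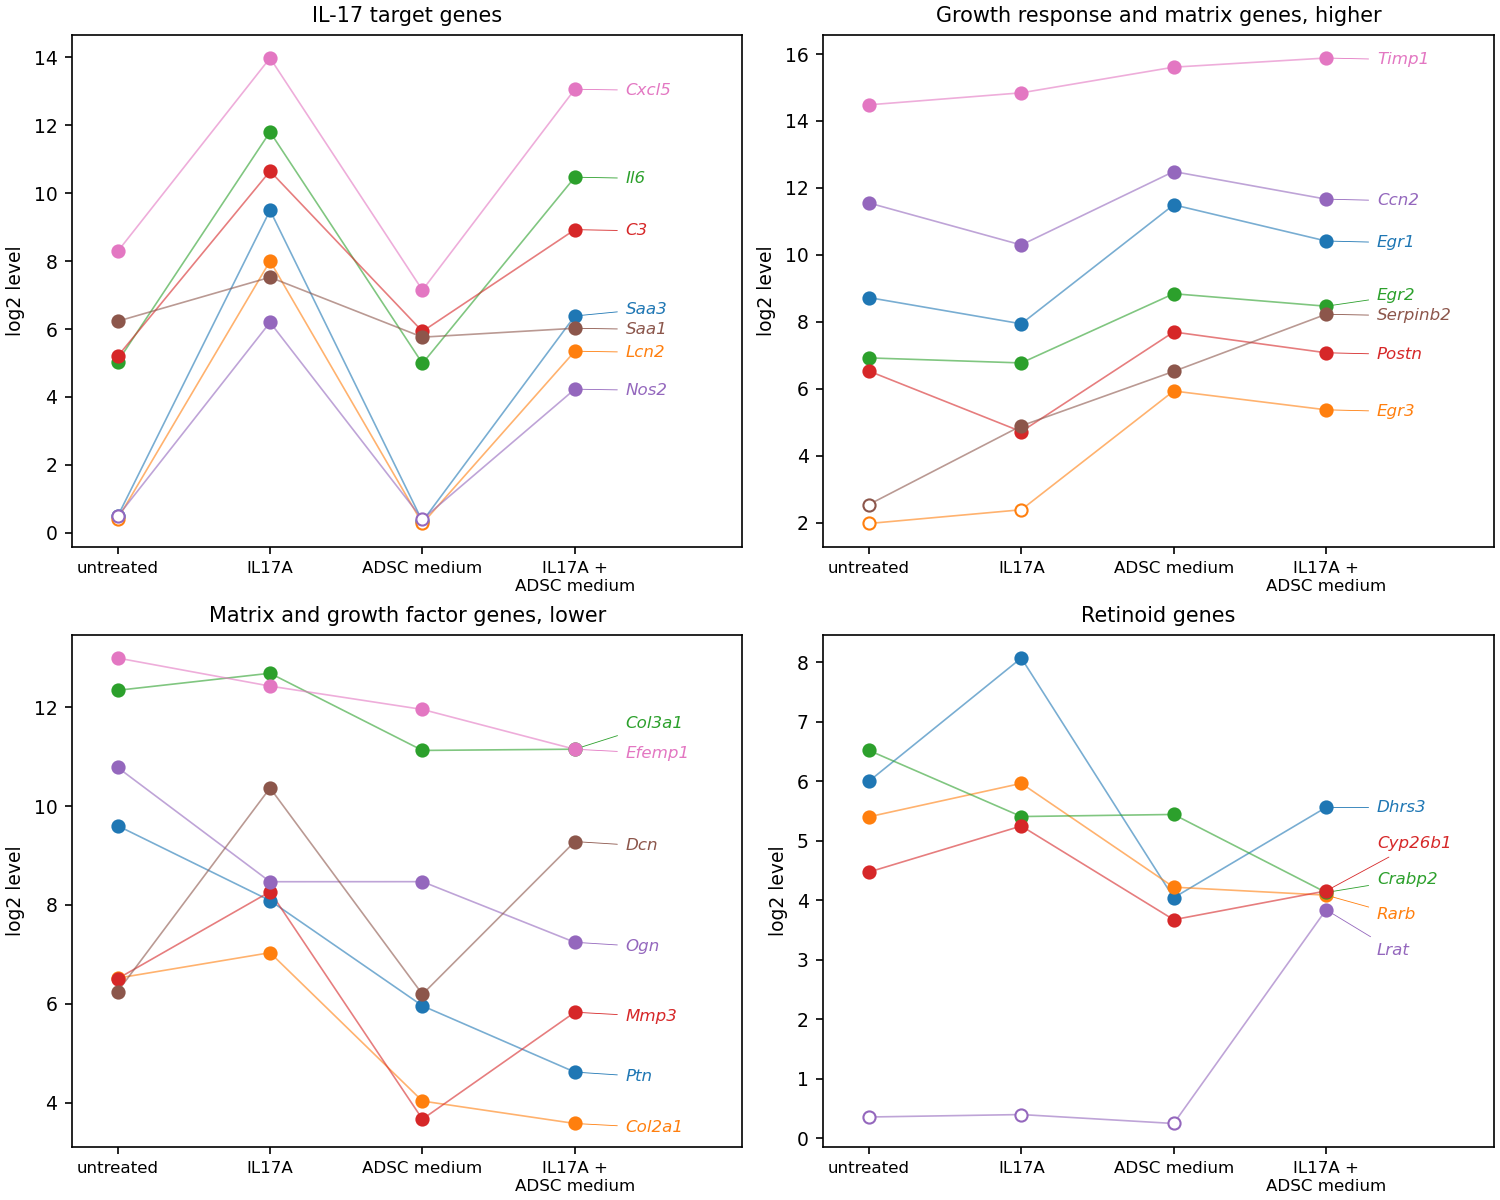
Log2 level of 26 genes on the 4 arrays, 1 array a group, with filled points well above background and open points not; thin lines join the points of a gene. Saa3, Lcn2 and Nos2 are dim without IL17A and lower with added medium, while Egr1, Egr2 and Egr3 lie higher on both medium arrays than on both arrays without medium.

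Matrix genes differed in both directions. Postn, which encodes the matricellular protein periostin, was at 6.53 untreated, 4.72 with IL17A, 7.69 with medium alone and 7.07 with both, 5.12-fold higher with added medium. Ccn2, the connective tissue growth factor gene, followed the same order at 11.55, 10.29, 12.49 and 11.66. For both genes the IL17A array was the lowest of the 4. Protease inhibitor genes were higher too, with Serpinb2 (plasminogen activator inhibitor 2) at 4.89 and 8.22, a 10.1-fold difference, and Timp1 at 14.84 and 15.88. With median scaling Timp1 was at 0.86, inside 2-fold. The urokinase receptor gene Plaur (0.97) came near 2-fold without passing it. Pmepa1, a TGF-beta target, was at 1.46 and was the only one of 22 measured TGF-beta genes called, or 4.55%, near the 4.23% of all measured genes.

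Small leucine-rich proteoglycans, which bind collagen fibrils, had 5 of 6 measured members lower, against 2.51% of all measured genes. The other 7 of 13 members were dim on both arrays. The 2.51% was not matched to this list for level, and 13.1% of genes below a level of 5 were called in either direction. Ogn was at 10.78 untreated, 8.47 with IL17A, 8.47 with medium alone and 7.25 with both, so it was lower with either treatment and lowest with both. Dcn, the decorin gene, differed in shape, at 6.25, 10.37, 6.19 and 9.28 in the same order, high on both IL17A arrays. Omd (-1.53), Prelp (at least 3.62-fold) and Chad (at least 2.12-fold) completed the 5, and Bgn, at 0.37, was not called. Prelp and Chad were dim on the combined array, so they were measured through the IL17A array and could not have been called higher. The list median of -1.15 was -0.33 with normexp correction, which left Dcn as the 1 call, with Ogn at -0.97. Prelp was at -0.96 as the mean of its probes, and Chad was inside 2-fold with either scaling alternative.

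Among fibrillar collagens, Col2a1, a cartilage collagen gene, was at 7.04 and 3.58, 10.97-fold lower, and Col3a1 was at 12.69 and 11.15, 2.90-fold lower. The size for Col2a1 rests on its brightest probe, as another RefSeq probe well above background on all 4 arrays was at -0.38. The mean of its probes was -1.92, and normexp correction gave -1.46. The abundant Col1a1 (-0.19) and Col1a2 (-0.59) were not called, and Col5a3 (0.51) and Col11a1 (0.63) were above 0. The median over 9 measured fibrillar collagens was -0.039. Other collagens had 4 of 16 lower, against 2.51% of all measured genes, not matched for level. The 4 were Col6a3 (-1.49), Col22a1, Col4a5 (-1.23) and Col9a2 (-1.01). Col6a3 was at -0.45 as the mean of its probes, and none of the 4 passed 2-fold with normexp. Col9a2 was also inside 2-fold with either scaling alternative. Of 17 measured laminin and elastic fibre genes, Efemp1 (-1.28) and Emilin1 (-1.37) were lower, while 11 were above 0 and the median was 0.19. Emilin1 was at -0.54 with normexp.

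Of the matrix proteases, the stromelysin gene Mmp3 was at 6.51 untreated, 8.27 with IL17A, 3.67 with medium alone and 5.83 with both. Its lower level with medium was seen with the cytokine (5.42-fold) and without it (7.17-fold). Mmp19 (-1.22) and the aggrecanase gene Adamts5 (-1.17) were lower and Adamts12 (1.46) higher. The Adamts12 call was lost with the mean of its probes (0.54) and with normexp (0.44), and that of Mmp19 with normexp (-0.67). Contractile and myofibroblast genes had 0 of 20 called, with Acta2, the smooth muscle actin gene that marks activated stellate cells, at -0.034. Among all measured genes 4.23% were called, and 1.54% of those above a level of 7, so a count of 0 does not set this list apart. Tagln (0.82), Cnn1 (0.86) and Myl9 (0.85) were above 0 and Cald1 (-0.90) below, and the list median of 0.13 was -0.026 with median scaling.

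Among other secreted factors, the heparin-binding growth factor gene Ptn was at 9.603 untreated, 8.09 with IL17A, 5.96 with medium alone and 4.62 with both, 11.1-fold lower with added medium. Angpt2, a ligand of the endothelial receptor Tie2, was at -1.73, the vasodilator peptide gene Adm at -1.83 and the lymphatic growth factor gene Vegfc at 1.04. Angpt2 was at -0.78 with normexp and Vegfc at 0.86 with median scaling. Ptn, Angpt2 and Adm were lower by similar amounts without IL17A, at -3.64, -1.76 and -1.58.

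Genes of vitamin A handling, the defining trait of the quiescent stellate cell, had 4 of 17 measured members lower and 1 higher. Among all measured genes, not matched for level, 2.51% were lower and 1.72% higher. Dhrs3, which reduces retinaldehyde, was at 6.000 untreated, 8.07 with IL17A, 4.04 with medium alone and 5.56 with both, a 5.69-fold difference. The retinoic acid receptor gene Rarb was at 5.403, 5.96, 4.22 and 4.09 in that order, 3.68-fold lower. For both genes each medium array was below each array without medium. The retinoic acid-binding protein gene Crabp2 (-1.28) and the retinoic acid-degrading enzyme gene Cyp26b1 (-1.09) were lower as well. Lrat, which esterifies retinol for storage, was well above background on the combined array only, at 3.84, and at least 2.14-fold higher. The list median was -0.12, and 0.062 with 75th percentile scaling. With normexp correction Dhrs3 was at -1.74, while Rarb (-0.70), Crabp2 (-0.44) and Cyp26b1 (-0.41) were inside 2-fold. Lrat did not pass 2-fold with normexp or with the mean of its probes, nor Cyp26b1 with 75th percentile scaling.

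Rarb is itself a textbook target of retinoic acid receptors, and its upstream window is shown for the repeat they bind, GTTCA and again GTTCA after 6 free bases, in capitals. It lies on the minus strand at chr14:16575477-16575726 (GRCm38.p6, RefSeq).
Rarb: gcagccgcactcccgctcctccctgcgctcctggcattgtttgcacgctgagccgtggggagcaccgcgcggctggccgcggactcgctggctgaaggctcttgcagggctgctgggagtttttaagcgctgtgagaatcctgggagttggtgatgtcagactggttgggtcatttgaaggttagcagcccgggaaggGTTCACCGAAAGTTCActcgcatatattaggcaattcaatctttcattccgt
The match ran from 52 to 37 bases before the start, and 22 of 32851 windows, or 0.067%, held these letters on either strand.

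Cholesterol synthesis genes were below 0 almost as a block. Of 26 measured genes of the pathway and its SREBP regulators, 25 were below 0, with a median of -0.66. Against 2.51% lower and 1.72% higher among all measured genes, 5 of the 26 were at least 2-fold lower and 0 higher. The 5 were Fdps (-1.22), which makes farnesyl diphosphate, Lss (-1.15), which closes the sterol ring, Nsdhl (-1.13), Acat2 (-1.01) and Idi1 (-1.01). Fdps was at 12.97 untreated, 12.96 with IL17A, 11.86 with medium alone and 11.74 with both. Its levels formed pairs by medium, with little distance between the arrays with and without IL17A. The sensor gene Insig1 was at -0.72, and the transport protein gene Scap, at 0.036, was the single member above 0. Without IL17A the list median was -0.74 over the same number of genes, with 6 at least 2-fold lower. The list median stayed between -0.88 and -0.62 over the alternatives run, and Lss was at -0.93 as the mean of its probes. Acat2 was at -0.97 with 75th percentile scaling and -0.88 with normexp. Fatty acid synthesis genes had a median of -0.33, with the acetyl-CoA synthetase gene Acss2 (-1.16) lower but at -0.75 with normexp.

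Hmgcs1, the first dedicated enzyme of the pathway, was at 13.02 untreated, 12.79 with IL17A, 12.03 with medium alone and 12.09 with both, and was not called. Its upstream window is shown for TCACNCCAC, letters of the sterol regulatory element that SREBP proteins bind, in capitals. It lies on the plus strand at chr13:119690101-119690350 (GRCm38.p6, RefSeq).
Hmgcs1: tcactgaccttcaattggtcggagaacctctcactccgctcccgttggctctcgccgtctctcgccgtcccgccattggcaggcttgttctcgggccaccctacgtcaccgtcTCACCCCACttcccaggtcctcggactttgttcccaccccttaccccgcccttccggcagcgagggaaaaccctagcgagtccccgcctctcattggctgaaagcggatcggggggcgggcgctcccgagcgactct
Of all windows, 1.05% held this pattern.

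**Figure D3:**
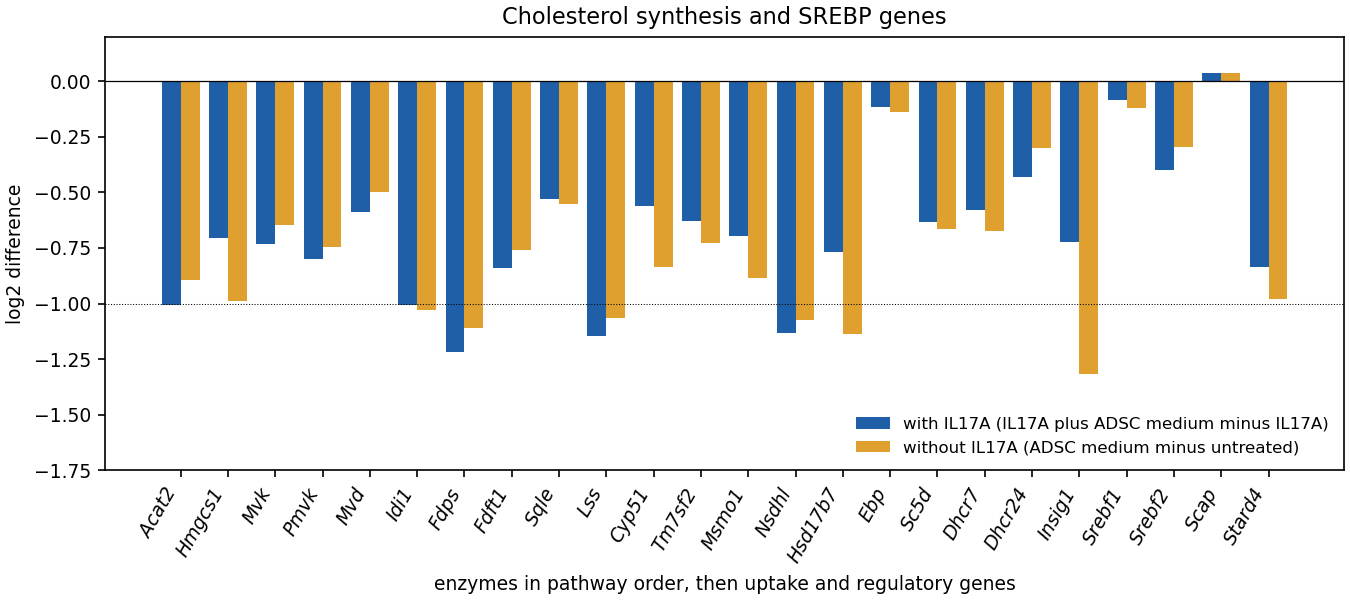
Log2 difference with added medium for 24 of the 26 cholesterol synthesis and SREBP genes, with IL17A (blue, combined array minus IL17A array) and without it (yellow, medium array minus untreated array); each bar is 1 difference of 2 arrays and the dotted line marks 2-fold lower. All bars but those of Scap lie below 0, and Fdps, Lss, Nsdhl and Idi1 pass the line in both pairs.

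The 34 genes of glycolysis and the hypoxia response had a median of -0.28 with 27 below 0, and only Adm was called, or 2.94%, against 4.23% of all measured genes. On the pair without IL17A their median was 0.066. The lowest after Adm were the aldolase gene Aldoc (-0.91), the pyruvate dehydrogenase kinase gene Pdk1 (-0.87) and Ankrd37 (-0.79), while Vegfa was at 0.75. Whether these list medians differ between cells with and without IL17A was not tested.

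Transcription factors of the circadian clock and its output were lower for 3 of 18 measured genes, against 2.51% of all measured genes, not matched for level. The PAR bZIP factor gene Hlf was at 5.98 untreated, 8.02 with IL17A, 3.5 with medium alone and 4.92 with both, 8.59-fold lower. Cry1, a repressor in the clock loop, was at -2.200 and the nuclear receptor gene Rora at -1.398, and with normexp correction these were at -0.50 and -0.54. Another Cry1 probe, well above background on all 4 arrays, was at -0.76, and the mean of the Cry1 probes was -1.48. The list median was -0.17.

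Cornified envelope genes, known from the outer layer of skin, had 5 of 17 measured members higher and 0 lower. Among all measured genes 1.72% were higher, but those were not matched for level, and 13.1% of genes below a level of 5 were called in either direction. Lce1g was at 6.03 untreated, 6.298 with IL17A, 8.47 with medium alone and 8.96 with both, and Lce1i (2.57) and Lce1j (2.05) showed differences of like size. The late cornified envelope genes have closely similar sequences and their probes may share signal, so their separate values are uncertain. Sprr2h (7.35 and 9.67) and Lor (1.13) were the other 2. Lce1g was at 1.205 as the mean of its probes, and Lce1j (0.98) and Lor (0.72) were inside 2-fold with normexp.

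The largest difference in the lower direction among genes with a curated name well above background on both arrays was that of Ranbp3l, at 9.75 untreated, 10.502 with IL17A, 5.902 with medium alone and 6.599 with both, or 14.96-fold. On mm9 its probe lies at chr15:8996153-8996212, that of Ptn at chr6:36691386-36693332, that of Saa3 at chr7:53968031-53968090 and that of Postn at chr3:54194483-54194542. The water channel gene Aqp5 (-2.97), the sphingomyelinase gene Smpd3 (-2.42), Stamos (-2.86), Ifitm6 (-2.53), Dipk1c (-2.43) and Frmd5 (-2.31) followed among genes not yet given. In the higher direction they were Slc22a29 (2.48), the cardiac troponin gene Tnnt2 (2.31), Ctsw (2.18), Cox6a2 (2.09), the neuropeptide gene Nmu (1.96) and Slc16a11 (1.95). With normexp correction Ifitm6, Dipk1c, Frmd5, Slc22a29, Cox6a2 and Nmu did not pass 2-fold.

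Of the 75 higher genes with a dim IL17A array, 53 were well above background on the combined array alone, and of the 79 lower genes with a dim combined array, 29 were on the IL17A array alone. Irak3, Cadm3 (at least 15.5-fold), Ankrd33b (at least 15.2-fold), Lrrc18, Fut9, Gria3 and the olfactory receptor genes Olfr729 and Olfr1178 belong to the first kind. Each of these calls thus rests on the brightness of 1 probe on 1 array. The lower bounds were led by Bmf, a proapoptotic gene (at least 10.8-fold), Foxd2 (at least 10.01-fold), Tcte1 and Cd55, and included the coactivator gene Ppargc1a (at least 5.97-fold). Another Bmf probe, well above background on all 4 arrays, was at 0.04, and Bmf was at -1.43 as the mean of its probes and -0.93 with normexp. Foxd2, Tcte1, Cd55, Ppargc1a, Fut9, Gria3, Olfr729 and Olfr1178 did not pass 2-fold with normexp, nor Cadm3, Ankrd33b, Fut9 and Lrrc18 with the mean of their probes.

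Large parts of the transcriptome were near equal. Among 41 oxidative phosphorylation, 35 DNA replication, 29 mitosis, 25 endoplasmic reticulum stress and 21 housekeeping genes 0 were called, with medians of 0.019, 0.036, 0.0056, -0.075 and -0.016. The mean levels of these lists on the IL17A array lay between 11.16 and 13.9. Of all measured genes above a level of 7, 1.54% were called, so counts of 0 do not set these lists apart. All 5 medians were lower, between -0.27 and -0.18, with median scaling, close to its shift of all genes.

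**Figure D4:**
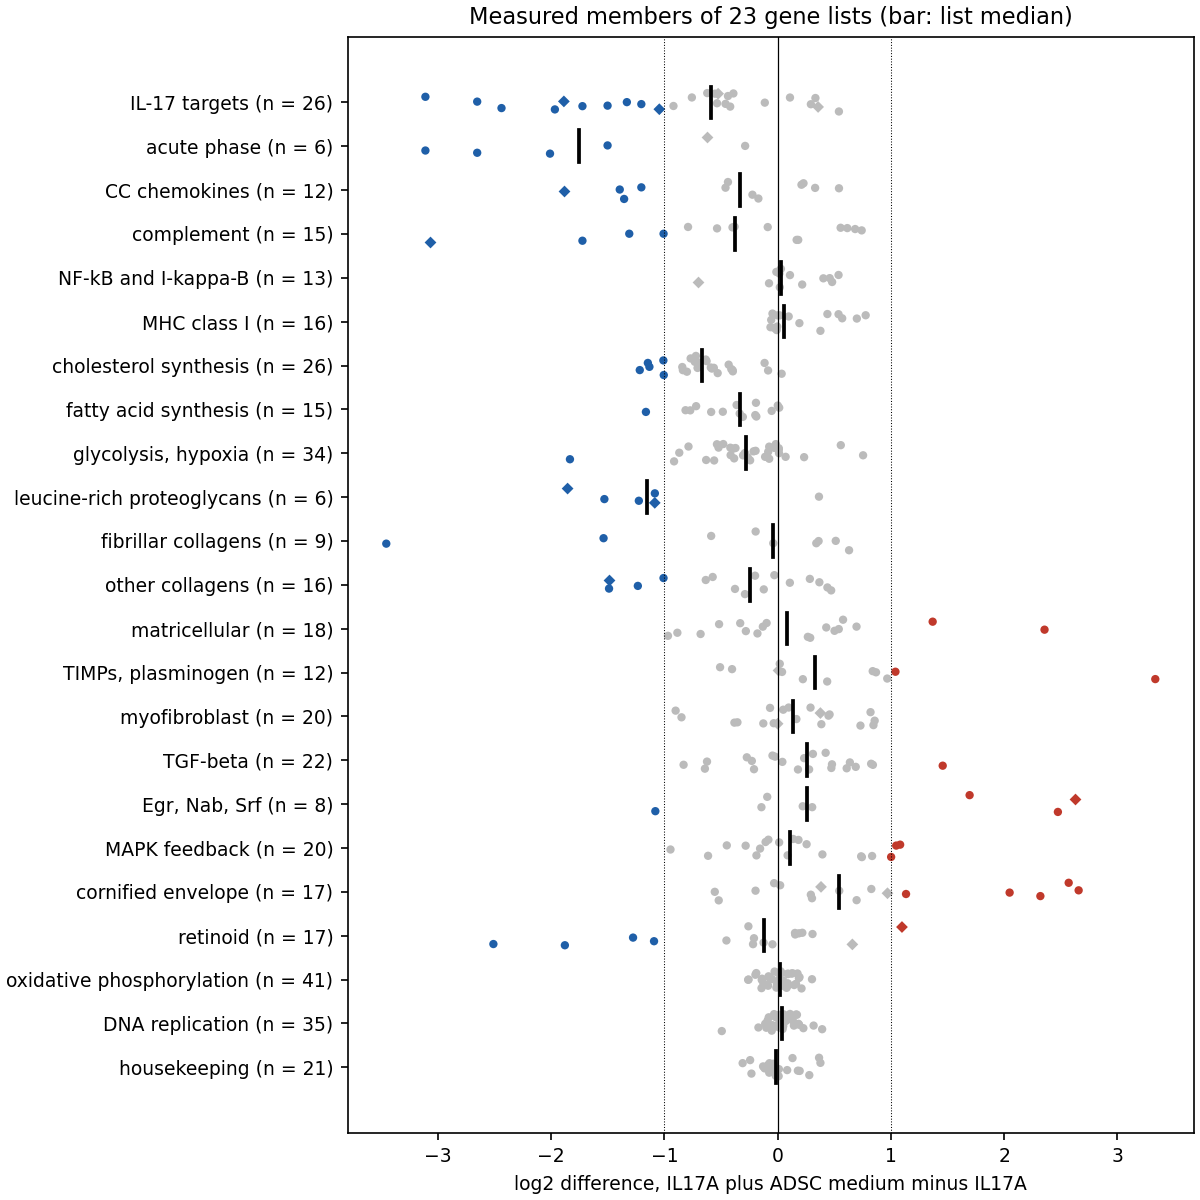
Log2 difference (combined array minus IL17A array) of the measured members of 23 gene lists, with circles for measured differences, diamonds for bounds, red and blue for genes at least 2-fold higher and lower and a black bar at the list median. Acute-phase, leucine-rich proteoglycan, cholesterol synthesis and IL-17 target medians lie farthest below 0, and oxidative phosphorylation, DNA replication and housekeeping members cluster at 0.

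The same medium was compared on a separate pair of arrays, medium alone against untreated cells, which shares no array with the main pair but the same slides. There 344 genes were higher, or 2.59% of 13295 measured, and 277 lower, or 2.08%, together 4.67%. Over 12292 genes well above background on all 4 arrays, the correlation of the 2 medium differences across genes was 0.67 by Pearson's r and 0.65 by Spearman's rho, which are not independent and share slide and probe. Of the 225 genes higher with IL17A, 171 were measured without it, 77 were at least 2-fold higher there, 2 lower, and their median was 0.95. Of the 328 lower genes, 284 were measured, 113 were at least 2-fold lower, 4 higher, and the median was -0.81. The genes called higher in both pairs are 45.0% of the higher genes measured in both and 22.4% of those called higher without IL17A. For lower genes these shares are 39.8% and 40.8%.

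Single genes are given here on both pairs, and no difference between the pairs was tested. Ptn, Ranbp3l, Mmp3, Col2a1, Hlf, Egr1, Fdps and Lss were past 2-fold in the same direction with and without IL17A. Il6 was at -0.053 without IL17A, C3 at 0.73, Saa1 at -0.47 and Dcn at -0.055, none of them 2-fold, and Saa3, Lcn2 and Nos2 were dim on both arrays of that pair and give no medium difference there. Alpl, the alkaline phosphatase gene, was at -3.24 without IL17A and -0.25 with it, and the alarmin gene Il33 was at 1.52 and 0.26.

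**Figure D5:**
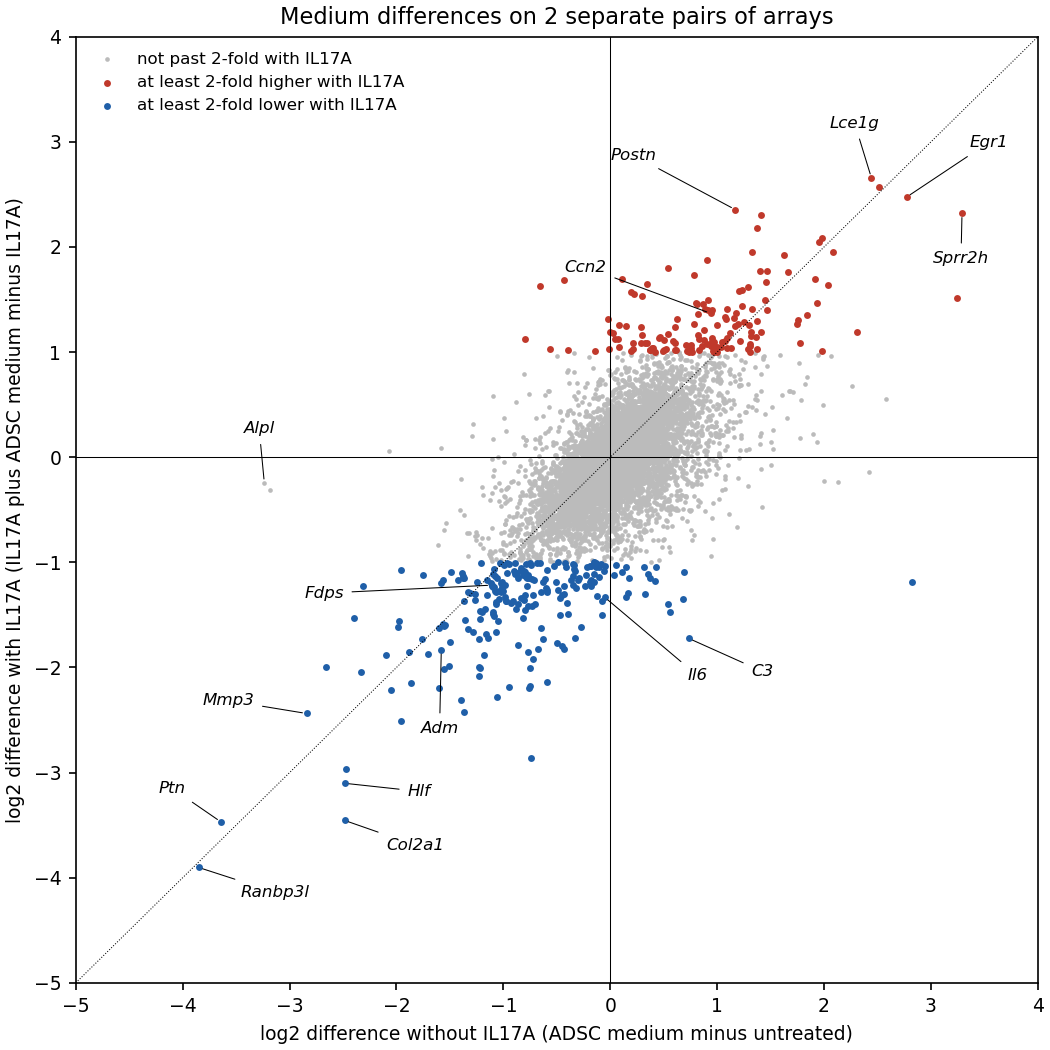
Log2 difference with added medium without IL17A (x axis, medium array minus untreated array) and with IL17A (y axis, combined array minus IL17A array) for 12292 genes well above background on all 4 arrays; the dotted line marks equal differences. Ptn, Ranbp3l and Egr1 lie near the dotted line, C3 and Il6 lie low on the y axis only, and Alpl lies low on the x axis only.

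The authors' deposited list of probes higher with IL17A and lower with IL17A plus medium was set beside these values. It holds 1193 probe IDs, chosen by the authors on these arrays, so it is no separate evidence, and the sources used here do not give its threshold. In the present normalization its probes had a median difference of -1.001, from -4.44 to 0.11, and 597 were lower by 1 or more. Of the listed probes, 855 had a higher level with IL17A than untreated and 208 were higher by more than 1. Of the 328 genes lower here, 280 had their probe on the authors' deposited list, or 85.4%, and for 74 of these the IL17A level was below the untreated level. Probes of Il6, C3, Nos2, Mmp3, Ptn and Fdps are on the authors' deposited list, and those of Saa3, Lcn2 and Ccl11 are not. On the pair without IL17A, 17.4% of the 874 measured listed probes were lower by 1 or more, against 2.64% of all 25511 measured probes.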

How the data were processed

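Total RNA of 4 IMS/N cultures, 1 array a group, was labelled with Cy3, per the labels' protocols, and each 1-colour Agilent array was read with Feature Extraction 12.1.1.1, per the file headers. Per the file headers, the intensity columns used are the software's processed signals, from which it had already subtracted background array by array on a linear scale. Deposited score columns flag whether a spot was well above background, saturated or an outlier. The authors normalized by quantiles per the series design text, and R 3.5.1 stands in the submitters' processing notes.

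Here control and outlier spots (91 to 126 an array) were left out, log2 signals were quantile normalized over the 4 arrays and spots of a probe averaged. Of 41106 probes, 28510 had a RefSeq accession and 28315 of these were named through it in the GRCm38.p6 table. Other probes were not used for genes, since 10.7% of those measured were higher, against 1.41% of RefSeq probes. Members, the 72 gene lists and the naming rule were chosen with earlier results of these data known. The rule took the 15 largest differences in each direction, up to 10 bounds, and from each list up to 6 called members, every measured member of lists of 12 or fewer, or the 3 brightest where none was called, and the text takes fewer. Some genes are not reported here. Ptgs2, Il17ra, Traf3ip2, Tab2, Aldoc, Pdk1, Ankrd37, Vegfa, Scap, Hmgcs1, Insig1, Acta2, Tagln, Cnn1, Myl9, Cald1 and Alpl fall outside the rule and were chosen after their values were seen. The size rule was tested on simulated data. Promoters were searched in the first 250 bases of RefSeq windows. Tools were Python 3.11.15, pandas 2.3.3, NumPy 2.4.6, R 4.3.3 and limma 3.58.1. The number of arrays limits the precision.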

Additional observations from a re-analysis of the deposited data

Results flagged for a closer look

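For the 4 genes given here the medium difference passed 2-fold in opposite directions with and without IL17A. Each value is a difference of 1 array pair, and whether the differences with and without IL17A differ was not tested. Ccl20, a chemokine gene, was at -1.20 with IL17A and at least 1.84 without. Muc1, a mucin gene, was at -1.36 and at least 1.17, and the ciliary gene Hydin at -1.18 and 2.82. In the other direction, the glutamate receptor gene Grin3a was at least 2.61 higher with IL17A and its bound was -3.03 without. Grin3a was well above background on the untreated and the combined array only. All 4 genes were below a level of 7 on every array.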

How the results depend on the processing

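No paired analysis was possible because each group had 1 array, and a slide term could not be fitted because slide and medium differ together. Against 225 higher and 328 lower genes, normexp background correction gave 49 and 73, no filter on dim probes 568 and 801, all probes with or without a RefSeq accession 511 and 494, a 1.5-fold size 732 and 1020 and a 4-fold size 37 and 46. The higher count was also 146 with genes well above background on all 4 arrays and 351 with a dim side at its own value. The median of all genes was -0.17 with median scaling, a shift of -0.18. Of 792 list medians under alternatives, 55 had the other sign, 19 of them with median scaling. Of the 55, 17 had started at least 0.085 from 0, the within-array SD above a level of 7, and moved by at least that much. With 75th percentile scaling these 17 included FGF and HGF genes (0.033), retinoid genes (0.062), keratin and mesothelial genes (0.12) and endothelial markers (0.050). With median scaling they included myofibroblast (-0.026), Ptn and Mdk family (-0.13), MAP kinase feedback (-0.033), glucocorticoid (-0.083) and Notch genes (-0.027). With normexp they included MAP kinase feedback (-0.025), mineralization (0.0064) and keratin and mesothelial genes (0.047). Mineralization genes were at 0.0088 and 0.11 with genes well above background on both and on all 4 arrays, and with no filter the Ptn and Mdk family was at -0.0065 and neutrophil markers at 0.015. With all probes macrophage markers were at 0.11 and the difference of Gria3 was -0.13. Of 129 called genes named by the rule, 120 stayed called with 75th percentile scaling, 116 with median scaling, 108 with the mean of RefSeq probes and 55 with normexp. Signal over background limits the calls at low levels.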
